A study of Mus musculus with 13 samples.

Results

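The enzymes that make serine and carry its side-chain carbon through the folate cycle were followed in the lungs of mice kept at 80% oxygen (Hyperoxia) or 21% oxygen (Normoxia) for 5 days. The 10 genes were taken from the rows of the deposited count table by their symbols (Phgdh, Psat1, Psph, Shmt1, Shmt2, Mthfd1, Mthfd2, Mthfd1l, Aldh1l1 and Aldh1l2), out of 32544 gene symbols, and all 10 were among the 12496 that passed the filter on low counts. Both groups were wild-type (WT) male C57BL/6J mice, bought at an age of 7 weeks, with no transgene or other treatment in the labels, and there were 7 Normoxia and 6 Hyperoxia libraries. Whole lung was flushed with cold buffered saline before freezing, and polyadenylated RNA was read from its 3′ ends by Quant-seq. A value is therefore a count of transcript ends that is not divided by transcript length, and levels are compared here between libraries for the same gene, not between genes.

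Serine is made from the glycolytic intermediate 3-phosphoglycerate by PHGDH, PSAT1 and PSPH in turn. Serine hydroxymethyltransferases then pass a carbon from serine to tetrahydrofolate and leave glycine, SHMT2 in mitochondria and SHMT1 in the cytosol. In mitochondria MTHFD2 oxidizes this carbon and MTHFD1L releases it as formate, which MTHFD1 takes up again in the cytosol for the synthesis of purines and thymidylate and for methylation. ALDH1L1 in the cytosol and ALDH1L2 in mitochondria oxidize formyl-folate to carbon dioxide and yield NADPH. Serine synthesis and the mitochondrial folate enzymes are known targets of the stress-induced transcription factor ATF4.

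In hyperoxia 6 of the 10 mRNAs rose, 1 fell and 3 did not pass the test, against 11.8% of all tested genes that rose and 10.8% that fell. Each of the 4 mitochondrial folate enzymes rose, as did Psat1 and Phgdh of serine synthesis. Of these, Aldh1l2, and in part Phgdh and Mthfd1l, were kept by the filter on low counts through the hyperoxic libraries. Mthfd1, the cytosolic enzyme with 3 activities, was the member that fell. Calls are from edgeR's quasi-likelihood test across all tested genes at a Benjamini-Hochberg adjusted p of 0.05. The median log2 fold change was 1.02 over the 10 members and −0.03 over all tested genes. Levels are CPM, counts scaled to a common library total, corrected by TMM, the trimmed mean of M-values.

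The promoters of the members with the largest rises, Mthfd2 and Psat1, and of the member that fell, Mthfd1, are shown for the 140 bases ending 11 bases before the RefSeq start (GRCm38.p6, 5′ to 3′ on the gene's strand). Capitals mark CCAAT or its complement ATTGG. The Mthfd2 stretch is chr6:83317615-83317754 (minus strand), the Psat1 stretch, before the first of its 2 RefSeq starts, is chr19:15925070-15925209 (minus strand) and the Mthfd1 stretch is chr12:76255082-76255221 (plus strand).
Mthfd2: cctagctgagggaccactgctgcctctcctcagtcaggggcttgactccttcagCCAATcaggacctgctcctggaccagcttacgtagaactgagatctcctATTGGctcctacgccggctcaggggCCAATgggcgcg
Psat1: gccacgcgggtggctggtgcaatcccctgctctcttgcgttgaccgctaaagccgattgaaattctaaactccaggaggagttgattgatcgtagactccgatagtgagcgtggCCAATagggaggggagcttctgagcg
Mthfd1: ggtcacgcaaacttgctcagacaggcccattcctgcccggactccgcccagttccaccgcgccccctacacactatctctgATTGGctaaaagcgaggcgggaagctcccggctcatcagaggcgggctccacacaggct
On either strand of the window from 250 bases before to 50 after the start, CCAAT stood in 7 of the 9 member genes with a RefSeq window, including all 3 shown here, and in 37.4% of all 32851 windows. Psat1 has 2 windows, and a gene was counted where either held the motif; by windows CCAAT stood in 7 of the members' 10, and only in the first of Psat1. Shmt2 and Mthfd1l, which also rose, held no CCAAT in theirs, whereas Psph, Shmt1 and Aldh1l1, which did not pass the test, did. The sequence TGATGNAA, a form of the amino acid response element that ATF4 binds, was found in 0 of the 9 genes and in 3.97% of all windows. CACGTG, the E-box of MYC, was likewise found in 0 of the 9 and in 7.15% of all windows. GGGCGG was found in 6 of the 9, in the second window for Psat1 (35.7% of all windows), and TGACNNNGC in 2 of the 9, Phgdh and Psph (12.4% of all windows). The windows do not cover distal elements or the rest of the gene. Those of Mthfd2, Psat1 and Aldh1l1, among others, lie inside the annotated gene spans given below, whose outer ends differ from these RefSeq starts. No window was matched for Aldh1l2.

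The libraries held between 1607111 and 4540288 counts, so that the 3 counts taken as the floor correspond to between 1.84 and 0.656 CPM, for counting error alone. One Hyperoxia library, replicate 1, stood apart from the rest: its mean correlation with the other libraries over tested genes was 0.779, while the others' means lay between 0.886 and 0.919. For several of the results that it moved, though not for all, values without it are given as well. Of the alveolar type 2 cell markers 5 of 6 were lower in hyperoxia, of the club cell markers 2 of 3, and of the B cell markers 4 of 4, whereas the endothelial list had 1 of 5 lower and the fibroblast list 1 of 4 higher. Of the alveolar macrophage markers 1 of 5, Mrc1, was higher (log2 fold change 0.72, edgeR adjusted p = 0.00415), and their summed level was 251 to 306 CPM in normoxia and 147 to 643 CPM in hyperoxia. Of the proliferation markers 0 of the 5 tested were called. The summed level of this list ranged from 78.0 to 118 CPM in normoxia and from 45.2 to 89.1 CPM in hyperoxia. Markers of liver, an organ rich in several of these enzymes, summed to at most 3.82 CPM in any library. In bulk lung, fewer cells of a type and less RNA per cell cannot be told apart, and the part of cell composition in the results was not tested.

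**Figure D1:**
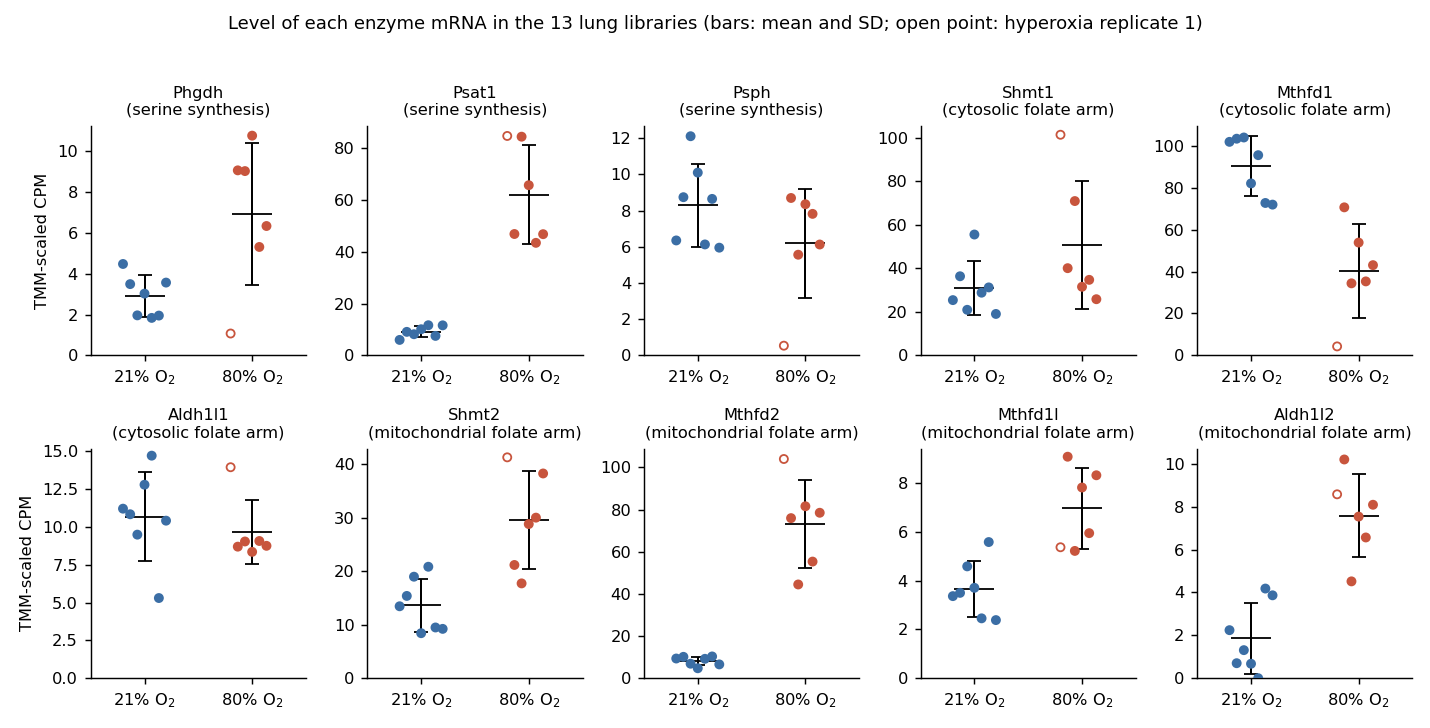
TMM-scaled CPM of each of the 10 enzymes (vertical axes, linear and starting at 0) in the 7 libraries at 21% oxygen and the 6 at 80% oxygen; each point is a library, bars give the mean and SD, and the open point is Hyperoxia replicate 1. Psat1, Mthfd2 and Aldh1l2 lay higher in every hyperoxic library than in any normoxic one, and Mthfd1 lay lower in every one.

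Phgdh, the enzyme that commits 3-phosphoglycerate to serine, lies at chr3:98313170-98339990 (GRCm38, minus strand). It was read at a low level, between 2 and 40 counts per library. In normoxia it ranged from 1.84 to 4.48 CPM with a median of 3.03, and in hyperoxia from 1.07 to 10.8 CPM with a median of 7.69. Of the hyperoxic libraries 5 of 6 were above all normoxic ones, and Hyperoxia replicate 1, with 2 counts, was below all of them. Phgdh rose 2.39-fold, with a log2 fold change of 1.26 (SE 0.39) and an adjusted p of 0.0271 by edgeR's quasi-likelihood test. Without Hyperoxia replicate 1 the log2 fold change was 1.47 and the edgeR adjusted p 0.0015, and the groups no longer overlapped. The call was lost with limma-voom (adjusted p = 0.0794), with limma on the deposited values (0.118), without Normoxia replicate 3 (0.0508) and without Hyperoxia replicate 4 (0.0667), and the exact permutation test of mean log2 CPM gave a two-sided p of 0.0513. Of the 31-base stretches of its annotated transcripts, 72.1% also occur in transcripts of other annotated genes, retrocopies such as Gm7901 among them, which had 0 counts. How reads were shared between these copies is uncertain.

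Psat1, the aminotransferase of the next step, lies at chr19:15904678-15947337 (GRCm38, minus strand). Its normoxic levels were between 5.97 and 11.6 CPM with a median of 9.08. Its hyperoxic levels were between 43.4 and 84.7 CPM with a median of 56.3, and the groups did not overlap. The normoxic mean was 9.16 ± 2.11 CPM (SD, n = 7), and the hyperoxic mean was 62.0 ± 19.2 CPM (SD, n = 6). Psat1 thus rose 6.77-fold, with a log2 fold change of 2.76 (SE 0.22) and an adjusted p of 6.8e-07 by edgeR, and ranked 26 from the top of the 12496 log2 fold changes. The exact permutation test over the 1716 ways to assign the labels gave a two-sided p of 0.000583, the smallest that it can give.

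Psph, the phosphatase that releases free serine, lies at chr5:129765558-129787449 (GRCm38, minus strand). It had 5.95 to 12.1 CPM in normoxia, with a median of 8.64. In hyperoxia it had 0.536 to 8.69 CPM, with a median of 6.97. The groups overlapped, and the lowest value, 1 count, was in Hyperoxia replicate 1. Psph did not pass the test, with a log2 fold change of −0.40 (SE 0.36) and an edgeR adjusted p of 0.471, and without that replicate the log2 fold change was −0.18.

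Among the mitochondrial folate enzymes, Shmt2 lies at chr10:127517123-127522444 (GRCm38, minus strand) and encodes the enzyme that takes the carbon from serine. It ranged from 8.41 to 20.8 CPM in normoxia, with a median of 13.4, and from 17.7 to 41.3 CPM in hyperoxia, with a median of 29.4. In hyperoxia 5 of 6 libraries were above all normoxic ones, and replicate 3 was within their range. Shmt2 rose 2.18-fold (log2 fold change 1.12, SE 0.26, edgeR adjusted p = 0.00599, exact permutation p = 0.00466).

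Mthfd2, a dehydrogenase and cyclohydrolase that is low in most adult tissues, lies at chr6:83305691-83325908 (GRCm38, minus strand). In normoxia it ranged from 4.71 to 10.3 CPM with a median of 9.19, and in hyperoxia from 44.5 to 104 CPM with a median of 77.2. The lowest hyperoxic library was above the highest normoxic one. The means were 8.16 ± 2.13 CPM (SD, n = 7) and 73.3 ± 21.0 CPM (SD, n = 6). Mthfd2 had the largest rise among the 10 members, 8.97-fold, with a log2 fold change of 3.16 (SE 0.23) and an edgeR adjusted p of 2.5e-07, and ranked 16 of 12496 from the top. Its exact permutation p was 0.000583, and 0 of its 2248 stretches of 31 bases occurred in another annotated gene.

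Mthfd1l, the formate-releasing synthetase, lies at chr10:3973118-4167081 (GRCm38, plus strand). It ranged from 2.38 to 5.57 CPM in normoxia, with a median of 3.49, and from 5.21 to 9.07 CPM in hyperoxia, with a median of 6.87. Only Normoxia replicate 6 reached into the hyperoxic range, and 4 of 6 hyperoxic libraries were above it. Mthfd1l rose 1.88-fold (log2 fold change 0.91, SE 0.27, edgeR adjusted p = 0.0221, exact permutation p = 0.00291). Leaving out Hyperoxia replicate 6 put its edgeR adjusted p at 0.0501, with a log2 fold change of 0.87.

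Aldh1l2, the mitochondrial formyl-folate dehydrogenase, lies at chr10:83487450-83534140 (GRCm38, minus strand). In normoxia it ranged from 0 to 4.18 CPM with a median of 1.31, and 3 of the 7 libraries were at or under the floor of 3 counts. In hyperoxia it ranged from 4.52 to 10.2 CPM with a median of 7.81, above all normoxic libraries. Aldh1l2 rose 3.76-fold (log2 fold change 1.91, SE 0.46, edgeR adjusted p = 0.00706, exact permutation p = 0.00233). It was kept by the filter through the hyperoxic libraries, since 6 of 6 of these but 2 of 7 normoxic ones reached the filter's limit of 3.36 CPM before TMM. The same held in part for Mthfd1l, with 4 of 7 normoxic libraries over the limit, and for Phgdh, with 3 of 7.

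The 3′ end of Aldh1l2 overlaps that of D10Wsu102e on the opposite strand, and 50% of the 31-base stretches in the last 500 bases of its transcripts occur there too. D10Wsu102e averaged 1060 ± 175 CPM in the normoxic libraries (SD, n = 7) and 1152 ± 301 CPM in the hyperoxic ones (SD, n = 6), with a log2 fold change of 0.12 and an edgeR adjusted p of 0.671. Whether the counting used strand is not given in the sources used here, so the reads of this pair may not be separable.

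In the cytosolic arm, Shmt1 lies at chr11:60788104-60811718 (GRCm38, minus strand) and encodes the cytosolic counterpart of SHMT2. Its range was 19.0 to 55.5 CPM in normoxia, with a median of 28.8, and 25.8 to 101 CPM in hyperoxia, with a median of 37.4. The groups overlapped and 2 of 6 hyperoxic libraries, replicates 1 and 3, were above all normoxic ones. Shmt1 did not pass, with a log2 fold change of 0.69 (SE 0.33) and an edgeR adjusted p of 0.141, which became 0.40 and 0.309 without Hyperoxia replicate 1. In the last 500 bases 14.3% of the 31-base stretches are shared with Smcr8 on the opposite strand, which had a log2 fold change of 0.23 (edgeR adjusted p = 0.543).

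Mthfd1, which interconverts the folate carbon units of the cytosol, lies at chr12:76255298-76319803 (GRCm38, plus strand). Its normoxic range was 72.0 to 104 CPM with a median of 95.6. Its hyperoxic range was 4.29 to 70.7 CPM with a median of 39.2, so that all 6 libraries were below the normoxic ones, the lowest being replicate 1 with 8 counts. The normoxic mean was 90.2 ± 14.3 CPM (SD, n = 7), against 40.3 ± 22.2 CPM (SD, n = 6) in hyperoxia. Mthfd1 fell 2.22-fold (log2 fold change −1.15, SE 0.35, edgeR adjusted p = 0.0273, exact permutation p = 0.000583). Without Hyperoxia replicate 1 the log2 fold change was −0.91 with a smaller adjusted p, 0.00139. The edgeR adjusted p came just past the threshold without Normoxia replicate 2 (0.0503), Hyperoxia replicate 3 (0.0509) or Hyperoxia replicate 5 (0.0522). Several marker lists were lower in the same libraries as Mthfd1. The summed B cell markers were 110 to 156 CPM in normoxia and 29.2 to 67.6 CPM in hyperoxia, and the T cell markers, with overlap, 23.5 to 44.7 and 7.99 to 26.3 CPM. The summed alveolar type 2 markers were 12382 to 23028 and 3181 to 6846 CPM, and the club cell markers 14428 to 53058 and 182 to 9976 CPM. Their part in this result was not tested.

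Aldh1l1, the cytosolic formyl-folate dehydrogenase, lies at chr6:90486427-90600203 (GRCm38, plus strand). It had 5.30 to 14.7 CPM in normoxia, with a median of 10.8, and 8.35 to 13.9 CPM in hyperoxia, with a median of 8.89. The hyperoxic libraries lay within the normoxic range. Aldh1l1 did not pass (log2 fold change −0.15, SE 0.24, edgeR adjusted p = 0.712). The log2 fold change was −0.25 without Hyperoxia replicate 1 and between −0.25 and −0.04 over all 13 fits that left out a library, with the value nearest 0 without Normoxia replicate 5.

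Groups were free of overlap for 3 members that were higher in hyperoxia, against 5.6% of all tested genes, and for 1 that was lower, against 5.23%. Without Hyperoxia replicate 1, Phgdh joined them, for 4 higher and 1 lower, against 8.31% and 7.12% of all tested genes. With that library left out of the fit, 6 members were called higher and 1 lower, against 15.2% and 13.3% of the 12752 genes then tested. A filter of at least 10 counts in every library left 5 members, of which 3 were called higher and 0 lower by edgeR, against 14.1% and 13.6% of the 8670 genes that passed it; Mthfd1 was not among the 5. The library letters in the labels fall into B to M (5 Normoxia, 3 Hyperoxia) and O to S (2 Normoxia, 3 Hyperoxia), and the labels do not say what a letter stands for. Within each set the members called kept their direction, but the sizes differed for some: the difference in mean log2 CPM of Aldh1l2 was 2.45 among B to M and 0.78 among O to S, and that of Mthfd1 was −2.08 and −0.73. For Shmt2 it was 0.73 and 1.71, and for Phgdh 0.65 and 1.23. For Mthfd2 it was 3.08 and 3.01, and for Psat1 2.89 and 2.37. The normoxic libraries of B to M include the 3 in which Aldh1l2 was at or under the floor of 3 counts. The p-values measure the spread between these samples, which the labels number but do not tie to separate mice.

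**Figure D2:**
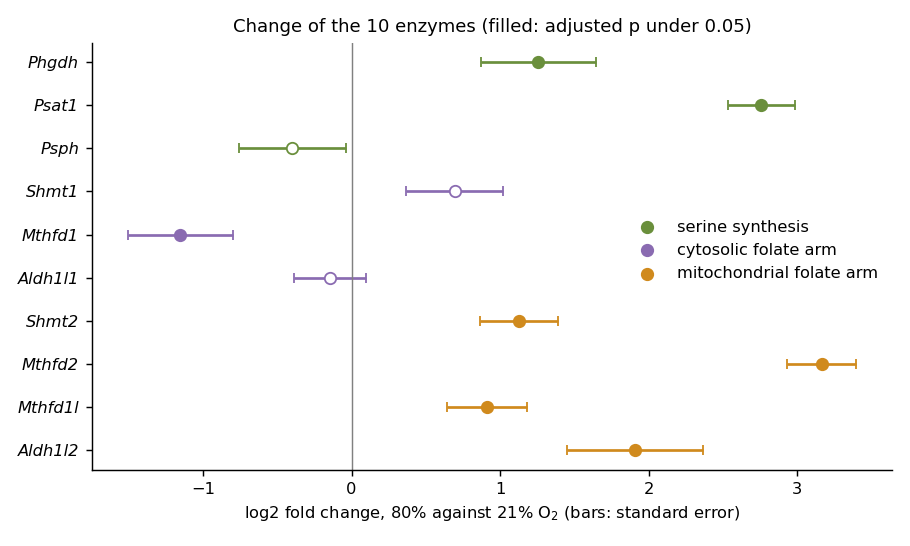
Log2 fold change of the 10 enzymes in hyperoxia against normoxia (horizontal axis, edgeR) with its standard error, colored by role; filled points passed an adjusted p of 0.05. The 4 mitochondrial enzymes lie between 0.91 and 3.16, and the 3 cytosolic enzymes between −1.15 and 0.69.

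The second comparison set the mitochondrial folate arm (Shmt2, Mthfd2, Mthfd1l, Aldh1l2) against the cytosolic arm (Shmt1, Mthfd1, Aldh1l1). All 4 mitochondrial members rose, while of the 3 cytosolic members Mthfd1 fell and the other 2 did not pass by edgeR or DESeq2, with an unadjusted edgeR p of 0.0486 for Shmt1. The mean log2 fold change was 1.78 over the mitochondrial arm and −0.20 over the cytosolic arm, a difference of 1.98. Aldh1l2, and in part Mthfd1l, were kept by the filter through the hyperoxic libraries, so their rises are not separate support. No arm mean without them was computed. Since the members were chosen with results of these data known, no p is given for a score over them. The mean log2 CPM of the mitochondrial arm minus that of the cytosolic arm was between −3.27 and −1.66 in the normoxic libraries and between −1.20 and 0.19 in the hyperoxic ones. All 6 hyperoxic libraries were above all 7 normoxic ones. Within the letter sets the difference between the groups was 2.15 (B to M) and 1.66 (O to S).

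The shift differed in size between pairs of enzymes that catalyze like steps. The log2 ratio of Mthfd2 to Mthfd1 averaged −3.39 ± 0.39 (SD, n = 7) in normoxia and 1.16 ± 1.61 (SD, n = 6) in hyperoxia, and was higher in 6 of 6 hyperoxic libraries. The difference between the groups was 4.55, and 3.90 without Hyperoxia replicate 1. For Mthfd1l to Mthfd1 the ratio was −4.42 ± 0.45 (SD, n = 7) in normoxia and −2.10 ± 1.18 (SD, n = 6) in hyperoxia, again without overlap. The value of Hyperoxia replicate 1 was 0.28 and the other 5 lay between −2.87 and −2.29, and the difference of 2.33 became 1.85 without it. Both ratios hold a member that fell as well as one that rose.

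The ratio of Aldh1l2 to Aldh1l1 was −2.42 ± 1.39 (SD, n = 7) in normoxia and −0.34 ± 0.41 (SD, n = 6) in hyperoxia, with 3 of 6 hyperoxic libraries above all normoxic ones. Its difference was 2.62 among the libraries B to M and 0.57 among O to S. Aldh1l2 had 2, 2 and 0 counts in Normoxia replicates 2, 4 and 5, all among B to M. The normoxic mean and SD of this ratio, and its difference among B to M, therefore depend in part on the prior count of log2 CPM. The ratio of Shmt2 to Shmt1, the pair that removes the carbon from serine, differed least over all libraries, with −1.14 ± 0.82 (SD, n = 7) and −0.65 ± 0.91 (SD, n = 6). Only 2 of 6 hyperoxic libraries were above all normoxic ones. This ratio was lower in hyperoxia by 0.32 among B to M and higher by 1.40 among O to S, so its direction depended on the set of libraries, and among O to S the Aldh1l2 to Aldh1l1 ratio differed less.

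**Figure D3:**
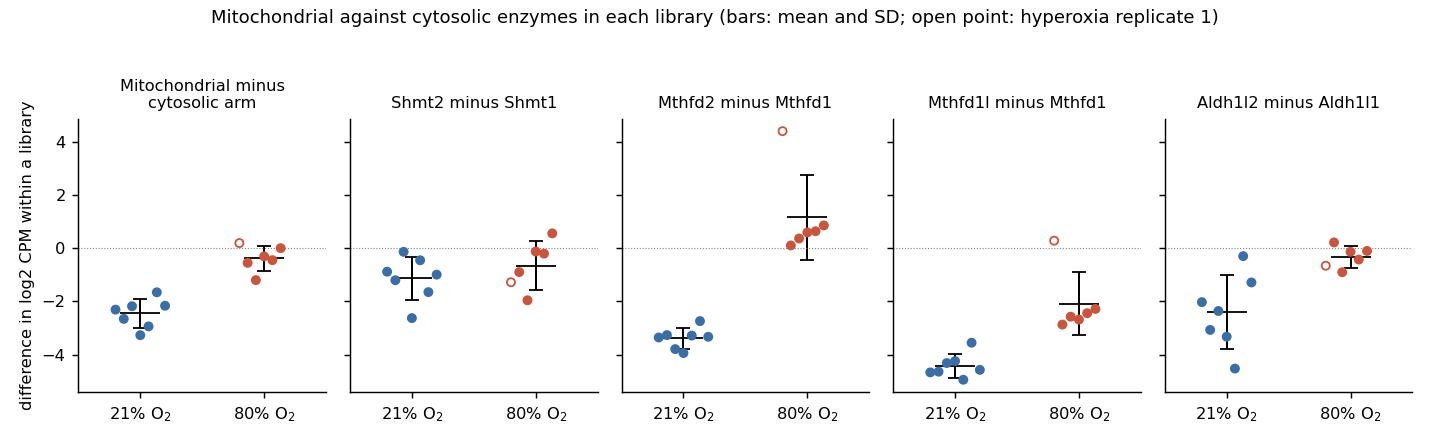
Difference in log2 CPM within each library, between the means of the mitochondrial and cytosolic arms and between the members of 4 enzyme pairs (vertical axis, shared), at 21% and 80% oxygen; each point is a library, bars give the mean and SD, and the open point is Hyperoxia replicate 1. The arms and both Mthfd1 pairs separate the groups, and Shmt2 minus Shmt1 does not.

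Of 42 other genes of folate, serine, glycine, methionine and purine metabolism, 33 were tested, 8 rose, 2 fell and 23 did not pass, with a median log2 fold change of 0.05 (over all tested genes, 11.8% rose and 10.8% fell). Sfxn1, the carrier that brings serine into mitochondria, rose from 64.1 ± 6.21 to 116 ± 17.0 CPM (SD, n = 7 and 6; log2 fold change 0.85, SE 0.13, edgeR adjusted p = 0.000222) and was higher in 6 of 6 hyperoxic libraries. Its relative Sfxn3 had a log2 fold change of −0.31 (edgeR adjusted p = 0.278), or −0.18 without Normoxia replicate 3. Slc25a32, the mitochondrial folate carrier, had −0.18 (edgeR adjusted p = 0.728), or −0.02 without Hyperoxia replicate 1 and −0.03 without Normoxia replicate 3, and Mthfd2l, the second mitochondrial enzyme with the activities of MTHFD2, had −0.26 (edgeR adjusted p = 0.382).

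The glycine cleavage system, which breaks down glycine in mitochondria and feeds the same folate pool, was split. Gcsh, its lipoyl carrier, ranged from 23.3 to 36.2 CPM in normoxia and from 36.3 to 65.9 CPM in hyperoxia and rose (log2 fold change 0.62, edgeR adjusted p = 0.0130), and Amt, its aminomethyltransferase, fell from 19.1 ± 5.72 to 10.6 ± 2.77 CPM (log2 fold change −0.87, edgeR adjusted p = 0.0193). The edgeR adjusted p of Amt came past the threshold without Normoxia replicate 4 (0.0584) or 5 (0.0505), or without Hyperoxia replicate 4 (0.0576), 5 (0.0542) or 6 (0.0524). Dld, which also serves other mitochondrial dehydrogenases, stood at the threshold (log2 fold change 0.79, edgeR adjusted p = 0.0496); it ranged from 19.3 to 123 CPM in hyperoxia, and lost its call in most alternatives. Its log2 fold change was 0.51 without Hyperoxia replicate 3 (edgeR adjusted p = 0.117) and 1.00 without Hyperoxia replicate 1 (edgeR adjusted p = 0.00132). Gldc, the decarboxylase, had at most 3 counts in any library and was not tested.

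Of the 9 tested genes of the methionine cycle and transsulfuration 3 rose, 1 fell and 5 did not pass, Mtr, Mat1a, Mat2a, Bhmt and Gnmt. Ahcy, which hydrolyzes S-adenosylhomocysteine, rose by 0.77 on the log2 scale (edgeR adjusted p = 0.00383), and Mtrr, which reactivates methionine synthase, by 0.82 (0.0112). Cth, which makes cysteine in transsulfuration, rose from 3.69 ± 1.87 to 8.20 ± 1.14 CPM (SD, n = 7 and 6; log2 fold change 1.18, edgeR adjusted p = 0.00959). With a normoxic median of 2.69 CPM, it was kept by the filter through the hyperoxic libraries. Mat2b, the regulatory subunit of methionine adenosyltransferase, fell by 0.70 on the log2 scale (edgeR adjusted p = 0.0141), with all 6 hyperoxic libraries below the normoxic ones.

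Of the 6 genes of purine synthesis, Adsl and Atic rose, with log2 fold changes of 0.69 (edgeR adjusted p = 0.00146) and 0.56 (edgeR adjusted p = 0.00832). ATIC uses formyl-folate, as does GART, whose mRNA had a log2 fold change of 0.21 (edgeR adjusted p = 0.336). Tyms, the thymidylate synthase, did not pass: it ranged from 35.6 to 60.9 CPM in normoxia and from 38.5 to 65.7 CPM in hyperoxia (log2 fold change 0.01, edgeR adjusted p = 0.974). The direction of Tyms changed with the scaling. The folate uptake genes Slc19a1, Slc46a1, Folr1 and Folr2 were too low to be tested.

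**Figure D4:**
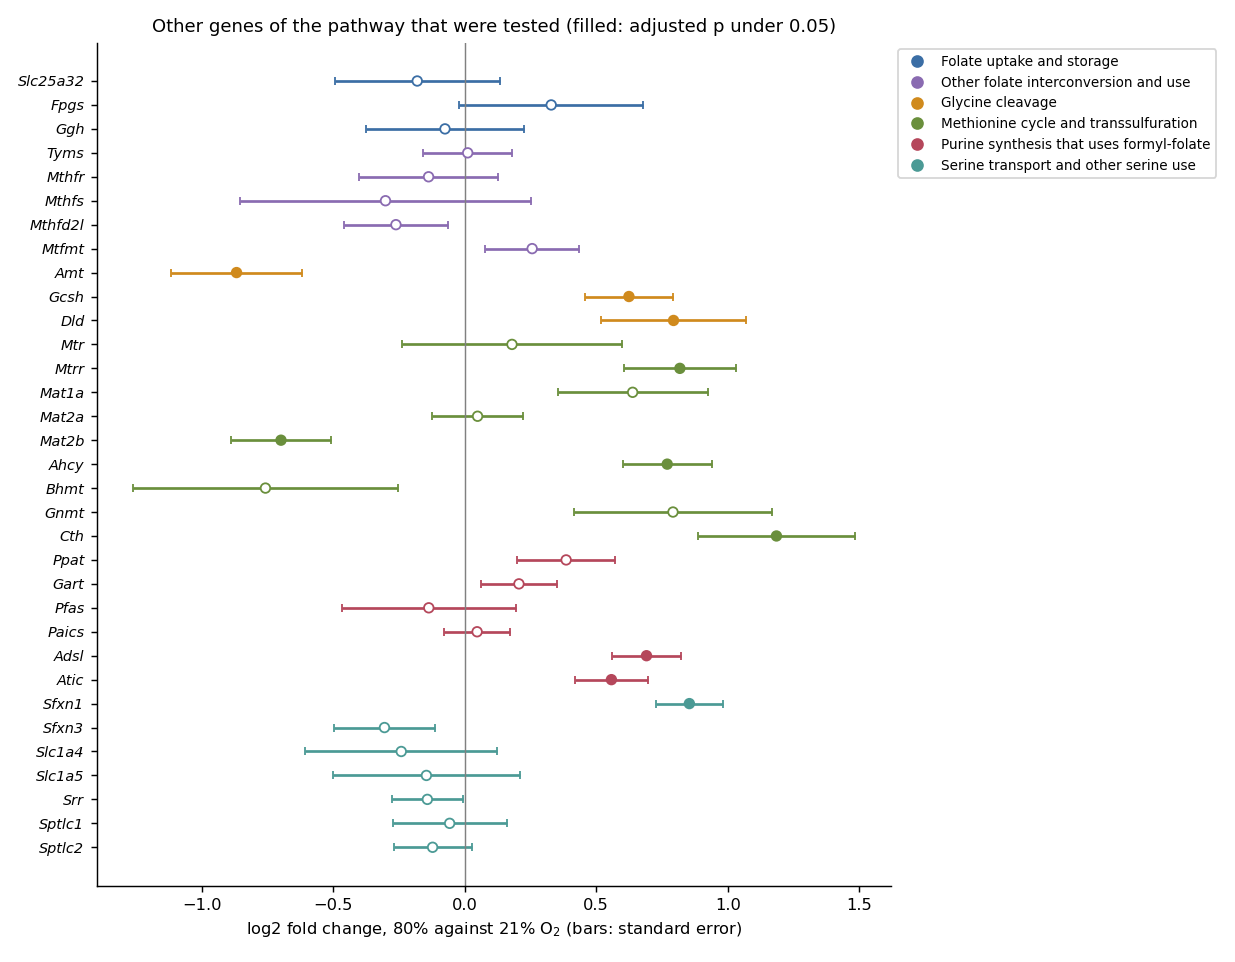
Log2 fold change in hyperoxia against normoxia (horizontal axis, edgeR) with its standard error for the 33 tested genes of the surrounding pathways, colored by their step; filled points passed an adjusted p of 0.05. The 10 filled genes lie between −0.87 and 1.18, within the range of the enzymes of the main list.

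Regulators that are known to act on these enzymes were read beside them. Atf4 rose from 70.7 ± 11.1 to 265 ± 44.2 CPM (SD, n = 7 and 6; log2 fold change 1.91, SE 0.15, edgeR adjusted p = 4.26e-07), with no overlap between the groups. Its known targets Trib3, Asns and Ddit3 rose by 2.75, 1.82 and 1.40 on the log2 scale (edgeR adjusted p = 0.000288, 0.0116 and 0.000181), and Chac1 and Atf5 were not tested. Nfe2l2, which encodes the oxidant-responsive factor NRF2, rose by 0.62 (edgeR adjusted p = 0.0236). Myc was low, with 2.27 ± 1.38 CPM in normoxia and 11.8 ± 10.5 CPM in hyperoxia (SD, n = 7 and 6), and rose by 2.36 on the log2 scale (edgeR adjusted p = 0.0110), but was at 0 in Hyperoxia replicate 1. Without that library the log2 fold changes of Myc, Asns and Nfe2l2 were 2.61, 2.08 and 0.43 (edgeR adjusted p = 0.000321, 0.00011 and 0.0207). The calls of Myc and Asns were lost with limma-voom (adjusted p = 0.167 and 0.0709) and with limma on the deposited values (0.0996 and 0.106), and that of Nfe2l2 without Normoxia replicate 2 (edgeR adjusted p = 0.0501). Like the members, this list was chosen with earlier results known, and Trib3 and Myc, with normoxic medians of 2.68 and 2.02 CPM, were kept by the filter through the hyperoxic libraries, so the count of 6 higher among 6 tested supports nothing by itself.

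The gene with the most similar pattern over the 13 libraries was found for each member by Pearson's r of log2 CPM, which includes the difference between the groups and the shared depth of each library. For Mthfd1 it was Txnip, which encodes a thioredoxin-binding protein (r = 0.994). For Psat1 it was Acadl (r = 0.984), an enzyme of fatty acid oxidation, and for Mthfd2 it was Ddah1 (r = 0.979), which degrades methylarginines. For Aldh1l2 it was Optn (r = 0.95), a receptor of selective autophagy. Once the group means were removed, r was 0.991 for Mthfd1 with Txnip, 0.731 for Psat1 with Acadl, 0.611 for Mthfd2 with Ddah1 and 0.864 for Aldh1l2 with Optn. The log2 CPM of Mthfd1 was 2.31 in Hyperoxia replicate 1 and 5.13 to 6.16 in the other hyperoxic libraries. A library so far from its group can carry much of such an r, and r without it was not computed. For the other members the nearest genes were Spp1 (Phgdh, r = 0.941), Rtcb (Psph, 0.957), Cd3eap (Shmt1, 0.937), Snrpb (Aldh1l1, 0.925), Tmem183a (Shmt2, 0.942) and Ndufaf6 (Mthfd1l, 0.910). Each gene was chosen by r before the group means were removed, as the highest among the 12496 genes, and these values are a description.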

How the data were processed

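RNA from lungs of 7 Normoxia and 6 Hyperoxia samples was read by 3′ Quant-seq. The authors used kallisto within BioJupies and deposited unnormalized whole-number counts per gene symbol. They also deposited log10(CPM + 1) values, which recomputing from the counts matched. The submitters' processing notes name mm10, and the annotation and strand setting are not given in the sources used here. All columns were mapped to samples by their descriptions, and groups were taken from the labels.

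Counts were filtered with filterByExpr, scaled by TMM and tested in edgeR 4.0.16 (quasi-likelihood) under R 4.3.3, over all genes, at an adjusted p of 0.05. Log2 CPM used a prior count of 2. Exact permutation tests were two-sided, on mean log2 CPM, over 1716 assignments. The fits were tested on simulated data with 200 changed genes. The alternatives were DESeq2 1.42.0, limma 3.58.1 (voom, and the deposited values), total counts as library sizes, other filters, a replicate block, a term for the library letters, and each library left out. The motifs other than the amino acid response element and the E-box, and the overlaps without Hyperoxia replicate 1 were added after the data were seen. Replicate libraries differed by more than sampling noise in all 36 pairs.

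Named genes are the 10 members, pathway and regulator genes that passed the test, examples chosen after their values were seen, and each member's nearest gene. Members and lists were chosen with earlier results of these data known. One gene of the pathway list is not reported here and was left out of its counts. Gene positions and shared 31-base stretches came from GENCODE, and promoters from RefSeq, matched by symbol for 9 of 10 members.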

Additional observations from a re-analysis of the deposited data

Results flagged for a closer look

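Among 36 groups examined over 18 measures, 4 held a library that lay far from the other libraries of its group, and all 4 were Hyperoxia replicate 1. By chance 1 in 20 groups, or 1.8, would be reached if the measures were separate. They are not, since the arms and ratios are built from the members. Aldh1l1 was highest in Hyperoxia replicate 1, at 13.9 CPM. The mean log2 CPM of the serine synthesis genes was lowest there, at 2.49. The log2 ratios of Mthfd2 to Mthfd1, at 4.40, and of Mthfd1l to Mthfd1, at 0.28, were highest there, and the count of Mthfd1 in that library was 8. Both ratios hold this same low count.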

How the results depend on the processing

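The 10 members gave 205 results over the alternatives with a test, of which 205 kept their direction and 193 their side of the threshold; 12 lost a call. The difference between the arms of 1.98 ranged from 1.81 to 2.15 as each library was left out. Requiring at least 10 counts in every library left 5 members tested, with 3 called higher and 0 lower, against 14.1% and 13.6% of the 8670 genes then tested. Leaving out each library gave 5 to 6 members higher, 0 to 1 lower, 7 to 9 pathway genes higher and 1 to 2 lower. Tyms turned negative with limma on the deposited values (−0.059), total counts as library sizes (−0.069) and the strict filter (−0.058), and ranged from −0.077 to 0.11 as each library was left out. Limma on the deposited values and total counts as library sizes moved the median over all genes to −0.16 and −0.10, and the share of called genes that were higher from 52.3% to 38.8% and 42.9%. Within the library letters O to S, the differences of Aldh1l1 and Psph, which were not called, were 0.21 and 0.03.

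With the replicate number as a block, which also drops Normoxia replicate 7 for want of a partner, 703 genes were called higher and 588 lower, 3 members higher (Psat1, Mthfd2 and Aldh1l2) and 0 lower, and 2 pathway genes higher and 0 lower; Myc, Asns and Nfe2l2 lost their calls. Dropping Normoxia replicate 7 without the block gave 1277 higher and 1120 lower. The labels do not say whether the numbers pair the samples. Deviations of same-numbered libraries correlated between −0.33 and 0.27, and 1 of 6 pairs was over 0.1, which cannot settle whether they do. Counting error is largest for the low members: Phgdh, Mthfd1l and Aldh1l2 had 5 counts or fewer in at least 1 library, and Psph had 1 count in Hyperoxia replicate 1.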
